A study of Drosophila melanogaster with 18 samples.

Results

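Of the 17373 Drosophila genes counted, 61 that carry only a CG number as their symbol had less RNA in wing discs with wts149 clones than in control discs, at both ages sampled. They were chosen from these values. The mean in wts discs of day 5 and of day 9 was each at most 0.57 times the control mean, the highest of the 6 wts values lay below the lowest control value, and the control mean was at least 3 CPM (the counts-per-million value, a gene's counts scaled to the total of its replicate). The symbol had to be CG followed by a number, and 15 such genes that belong to other gene groups were set aside by name. The search covered 2841 unnamed genes with a control mean of at least 3 CPM, of which 2.15% met the rule. Among genes of every other symbol the share was 93 of 4314 (2.16%). At a single age, the limits against control were met by 4.3% of all 7155 genes with that control mean on day 5 and by 3.72% on day 9.

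The RNA came from whole wing imaginal discs, the larval tissue that gives rise to the adult wing and part of the thorax, taken by hand from wandering larvae of the last instar. The groups were discs with wts149 clones on the FRT82B chromosome on day 5, discs with the same clones on day 9, and discs with FRT82B control clones labelled day 5 (a description reads d5.d6). In all 3 groups the clones were induced by Ubx-FLP in a Minute background, so that both wts and control discs were mosaics read as a whole. Each group had 3 replicates, each the sum of 2 libraries that the labels mark a and b. The labels do not say whether replicates were separate animals or pools, and no day 9 control was analysed here, so that age and genotype cannot be told apart in the older wts discs. In such bulk samples, fewer cells of a type and less RNA per cell cannot be told apart.

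Warts is a kinase at the end of the Hippo pathway. It phosphorylates Yorkie, a co-activator that acts with DNA-binding partners such as Scalloped, and keeps it out of the nucleus; in discs without Warts activity Yorkie switches on growth and survival genes and the tissue overgrows. CG numbers were given to predicted genes when the fly genome was annotated, and a gene keeps its number as its symbol until it is named. RefSeq (Release 6 plus ISO1 MT) now gives a name to 9 of the 61 (14.8%), against 17.6% of 7272 CG symbols matched. For most of the 61 no role can be stated here.

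Depth was 14201662 to 19762758 counts per wts day 5 replicate, 19297558 to 20899989 per wts day 9 replicate and 18063124 to 22263073 per control replicate. RNA of wts itself was 199.7 ± 14.8 CPM on day 5 and 266 ± 10.7 CPM on day 9, against 103 ± 4.22 CPM in control discs (SD, n = 3 each). This level does not check the genotype, since the sources used here do not give the lesion of wts149. Of 12 genes listed as Yorkie targets, 7 on day 5 and 10 on day 9 were called higher than in control (edgeR quasi-likelihood F-test, adjusted p under 0.05), where 9.64% and 15.3% of all genes tested were called higher. Their RNA had a summed level of 5152 to 5651 CPM on day 5 and 6101 to 6412 CPM on day 9, against 3282 to 3492 CPM in control.

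The 61 genes stood at a median of 0.346 times the control mean on day 5 and 0.251 times on day 9, where the median of all 7155 genes with a control mean of at least 3 CPM was 0.967 and 0.958 times control. On day 5, 24 of them were at or under 25% of control and 13 at or under 10%. On day 9 these numbers were 30 and 15. The rule fixed that all 61 were low, so these shares describe the set and test nothing. The genes were mostly of modest level: the median control mean was 11.1 CPM, against 31.3 CPM for the other unnamed genes searched, and 12 of the 61 were under 5 CPM. Per kilobase of exon, control levels ran from 0.964 CPM for CG32017 to 155 CPM for CG11370.

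**Figure D1:**
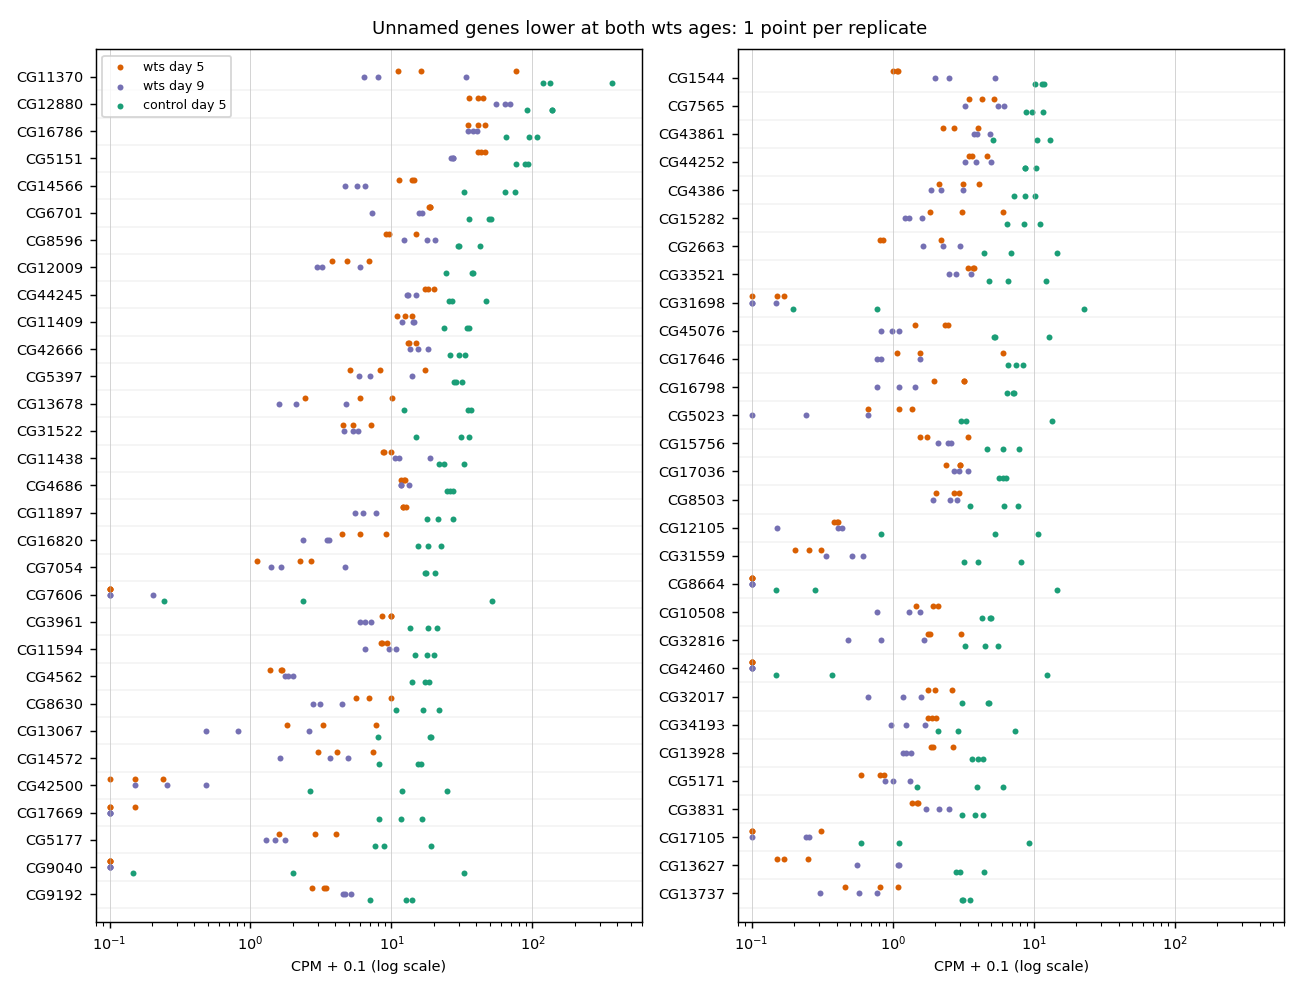
CPM plus 0.1 on a log axis in each replicate of the day 5 wts, day 9 wts and control discs, for the 61 unnamed genes ordered by control mean in 2 panels. Every control point lies to the right of the 6 wts points of its gene, as the rule requires, and the gap is narrow for CG34193 and wide for CG17669.

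Names or synonyms in RefSeq give a gene product or family that is described here for 12 members (synonyms of CG42460, including PPO3, are left out), and 5 of these are membrane proteins of transporter families. CG4562, now Mrp5, is an ABC transporter of the multidrug resistance protein family. It had 1.57, 1.27 and 1.54 CPM in wts discs on day 5 and 1.66, 1.75 and 1.91 CPM on day 9, against 18.3, 13.8 and 17.1 CPM in control discs. The wts replicates lay close together far below the controls at both ages (8.90% and 10.8%). CG11897, now rdog, is another transporter of the ABC class. Its values were 11.9, 12.5 and 12 CPM in wts discs on day 5 and 7.67, 6.17 and 5.41 CPM on day 9, against 21.4, 27.2 and 17.9 CPM in control discs. This gene was near the upper limit of the rule on day 5, at 54.7% of control, and reached 28.9% on day 9.

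CG17646, for which RefSeq lists the synonym ABCG1 of an ABC transporter of sterols in mammals, had 1.47, 5.99 and 0.972 CPM in wts discs on day 5 and 1.45, 0.720 and 0.670 CPM on day 9, against 7.38, 6.51 and 8.36 CPM in control discs. Replicate 2 of day 5 stood alone, close under the lowest control, and the other 5 wts values were all below 1.5 CPM. CG44252, now Fatp2, is a fatty acid transport protein. It had 3.54, 4.58 and 3.38 CPM in wts discs on day 5 and 4.87, 3.13 and 3.78 CPM on day 9, against 8.53, 8.62 and 10.2 CPM in control discs, and both ages were near 42% to 43% of control. CG8596, now Cln7, is a lysosomal membrane protein whose human counterpart is mutated in a form of neuronal ceroid lipofuscinosis. It had 9.51, 14.9 and 9.01 CPM in wts discs on day 5 and 20.4, 12.2 and 17.8 CPM on day 9, against 29.5, 30.2 and 42.4 CPM in control discs.

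A pair of members carry annotations of lipid metabolism enzymes. CG3961, with the synonyms ACSL1, ACSL5 and ACSL6 of long-chain acyl-CoA synthetases, had 8.45, 9.79 and 9.88 CPM in wts discs on day 5 and 7.05, 6.37 and 5.89 CPM on day 9, against 13.4, 18.1 and 21.0 CPM in control discs. CG11438, listed as a lipid phosphate phosphatase of the Wunen type, had 9.82, 8.80 and 8.598 CPM in wts discs on day 5 and 18.6, 11.3 and 10.5 CPM on day 9, against 32.5, 21.7 and 23.5 CPM in control discs. On day 9 its first replicate was well above the other two and still below the lowest control.

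CG17669, now Dnaaf3, was the lowest of the annotated members relative to control. Dnaaf3 proteins help to assemble the dynein arms of motile cilia, which in flies are found in a few sensory neurons and in sperm. It had 0.0506, 0 and 0 CPM in wts discs on day 5 and 0 CPM in all 3 replicates on day 9, against 11.6, 16.3 and 8.03 CPM in control discs. In counts this was 1 read on day 5 and none on day 9, against 752 in control. The ratio of control to wts was 656 on day 5 (95% interval 117 to 25950, counting error only), and on day 9 the gene was at least 243.9-fold lower than in control, taking 3 counts over the 3 replicates as the floor for a count of 0.

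The other 4 annotated members kept more of the control level. CG4386, now tpr and also listed as the serine protease SP17, stood at 35.1% of control on day 5 and 26.7% on day 9. CG8503, now SmydA-1, a SET and MYND domain protein, stood at 43.2% and 41.1%. CG42666, now prage and listed under the synonym of the RNA exonuclease REXO1, had 13.1, 14.9 and 13.3 CPM in wts discs on day 5 and 13.5, 15.4 and 17.9 CPM on day 9, against 29.9, 33.1 and 25.7 CPM in control discs. CG3831, now the gustatory receptor-like gene GrlHz, stood at 36.8% and 54.9%, close to the upper limit of the rule on day 9.

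Among the 49 members for which no product is described here, the highest level per kilobase of exon in control discs was that of CG11370. It had 11, 75.8 and 16 CPM in wts discs on day 5 and 33.6, 7.97 and 6.27 CPM on day 9, against 119, 364 and 132 CPM in control discs. One replicate stood above the others in each group: the second on day 5, the first on day 9 and the second of the controls. CG14566 was next per kilobase, with 11.2, 13.9 and 14.3 CPM in wts discs on day 5 and 5.6, 6.37 and 4.59 CPM on day 9, against 63.4, 74.7 and 32.8 CPM in control discs. CG12880 had 44.2, 35.6 and 41.0 CPM in wts discs on day 5 and 69.1, 55.0 and 63.5 CPM on day 9, against 136, 91.8 and 138 CPM in control discs. These high genes stood at different shares of control, since CG14566 was at 9.69% of control on day 9 and CG12880 at 51.2%.

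Further members with high control means kept much of their level in wts discs. CG16786 had 41.1, 45.6 and 34.6 CPM in wts discs on day 5 and 40.5, 34.6 and 37.7 CPM on day 9, against 93.9, 65.2 and 108 CPM in control discs. CG5151 had 40.9, 45.6 and 43.1 CPM on day 5 and 26.4, 27.3 and 27.1 CPM on day 9, against 93.4, 87.7 and 76.9 CPM in control discs, and was among the tightest of the set within each group. CG6701 stood at 41.2% of control on day 5 and 28.8% on day 9, CG44245 at 56.0% and 41.0%, and CG11409 at 40.0% and 43.7%. CG12009 was lower, at 15.3% and 12%.

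For other members without an annotated product the mean was mostly lower on day 9 than on day 5, with none of those named here called between the ages. CG7054 went the other way, with a mean of 1.92 CPM on day 5 and 2.48 CPM on day 9. It had 1.01, 2.61 and 2.15 CPM in wts discs on day 5 and 4.61, 1.54 and 1.29 CPM on day 9, against 17.4, 20.1 and 17.3 CPM in control discs. Its controls were even and far above every wts value. CG8630 had 5.46, 9.86 and 6.81 CPM on day 5 and 4.35, 3.03 and 2.68 CPM on day 9, against 21.6, 16.6 and 10.7 CPM in control discs, where the second day 5 value came close to the lowest control. CG15282, CG32816, CG32017 and CG13928 were between 41.2% and 52.7% of control on day 5 and between 14.8% and 29.5% on day 9. CG10508, CG33521 and CG34193 stood at 37.5%, 45.4% and 45.0% on day 5 and at 23.9%, 36.8% and 30.2% on day 9.

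In a further group the mean of day 9 was above that of day 5, with no member of it called between the ages in the edgeR fit. CG9192 had 2.63, 3.31 and 3.22 CPM in wts discs on day 5 and 5.08, 4.42 and 4.55 CPM on day 9, against 12.5, 13.8 and 6.98 CPM in control discs. CG2663 stood at 13.9% of control on day 5 and 25.7% on day 9, and CG43861 at 30.6% and 43.4%. CG7565, CG17036 and CG15756 were between 35.2% and 45.4% on day 5 and between 37.7% and 49.4% on day 9. CG11594 had 9.21, 8.52 and 8.34 CPM on day 5 and 6.43, 9.51 and 10.7 CPM on day 9, against 19.8, 17.8 and 14.5 CPM in control discs, with the ages overlapping and both below every control.

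**Figure D2:**
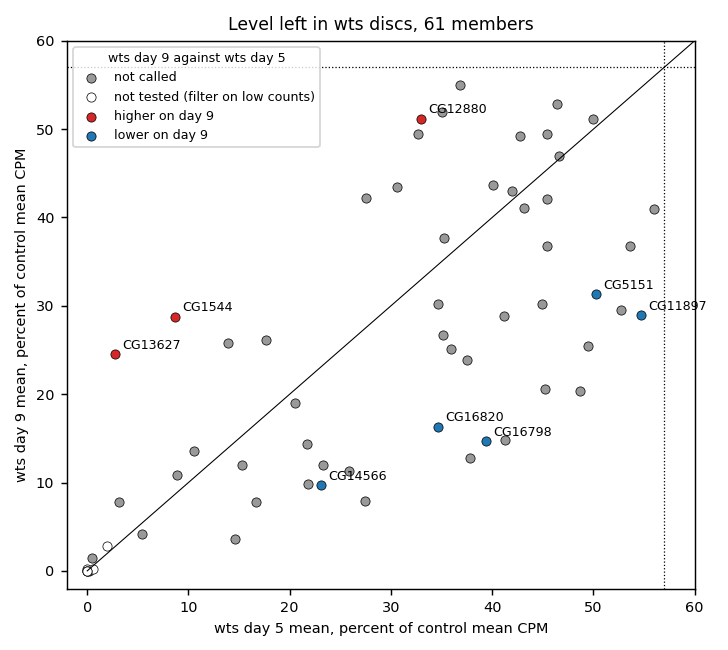
Mean level on day 5 (x axis) against day 9 (y axis) in wts discs, each as percent of the control mean, for the 61 genes, with the 8 that differed between the ages labelled. Both axes share the control mean, so no correlation is given; points below the diagonal had the lower mean on day 9, and CG13627, CG1544 and CG12880 lie above it.

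The controls themselves were uneven for many of the 61. The highest control was at least 2 times the lowest in 26 (42.6%), against 5.07% of the other unnamed genes searched, and at least 5 times in 8 (13.1%), against 1.37%. The control values entered the rule, so these shares are a description. The evenest were CG4686, CG16798, CG17036, CG13737, CG5397 and CG1544. CG4686 had 12.1, 11.5 and 12.4 CPM in wts discs on day 5 and 13.1, 11.7 and 11.6 CPM on day 9, against 27.0, 25.9 and 24.6 CPM in control discs, near 47% at both ages with each group in a narrow band. CG1544 had 0.911, 0.986 and 0.972 CPM on day 5 and 5.23, 1.90 and 2.39 CPM on day 9, against 11.3, 10.1 and 11.7 CPM in control discs.

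In 5 members nearly all control RNA sat in control replicate 3. CG9040 was at 0 in all 6 wts replicates, against 0.0476, 1.89 and 32.8 CPM in control discs. CG7606 was at 0 on day 5 and at 0.104, 0 and 0 CPM on day 9, against 0.143, 2.25 and 51.5 CPM in control discs. CG31698 reached at most 0.0704 CPM in a wts replicate, against 0.0953, 0.674 and 22.5 CPM in control discs. In each of these the lowest control differed from the wts discs by a single read or a few. CG8664 and CG42460 were also at 0 in every wts replicate, against 14.6 and 12.3 CPM in control replicate 3 and at most 0.270 CPM in the other controls. The same replicate held most of the RNA of 6 glue protein genes that mark the salivary gland, a gland that lies outside the disc: their summed level was 0.455 to 0.563 CPM on day 5 and 0.191 to 1.76 CPM on day 9, against 3.24, 248 and 5488 CPM in control replicates 1, 2 and 3. None of the 6 glue genes was at 0 in a control replicate. The part of these glands in the 5 values was not tested. Leaving out control replicate 3, 90 genes met the rule, and 52 of the 61 were among them. With any replicate left out, the no-overlap step is easier to meet, so a higher number does not single out that replicate.

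Control replicate 2 was at least 2 times both other controls in 7 members, CG11370, CG12105, CG17105, CG42500, CG45076, CG5023 and CG5177, which is 11.5% of the set against 0.396% of the other unnamed genes searched. CG42500 had 0, 0.141 and 0.0512 CPM in wts discs on day 5 and 0.155, 0.0514 and 0.383 CPM on day 9, against 11.8, 24.7 and 2.55 CPM in control discs. CG5023 had 1.01, 1.27 and 0.563 CPM on day 5 and 0.57, 0 and 0.143 CPM on day 9, against 3.19, 13.4 and 2.93 CPM in control discs. CG17105 was at 0, 0.211 and 0 CPM on day 5 and 0, 0.154 and 0.143 CPM on day 9, against 1.00, 9.16 and 0.498 CPM in control discs. Control replicate 2 also had the highest sum over 13 muscle genes: it was 1085 to 1273 CPM on day 5 and 1042 to 1056 CPM on day 9, against 1296.5, 2143 and 1306 CPM in control replicates 1, 2 and 3. Tm1 alone gave 838 to 937 CPM of this sum in every replicate, with log2 fold changes over control of 0.07 on day 5 and 0.03 on day 9. Of the 13, edgeR called 11 lower on day 9 than in control, where 14.3% of all genes tested were called lower; myosin light chain gene Mlc1, for example, had 0.155, 0.103 and 0.0478 CPM on day 9, against 13, 75.2 and 11.9 CPM in control replicates 1, 2 and 3. The part of muscle in the 7 values was not tested. Leaving out control replicate 2, 91 genes met the rule, 56 of the 61 among them.

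Control replicate 3 was at most 0.5 times both other controls in 6 members, CG12105, CG13067, CG13678, CG17105, CG31522 and CG42500, which is 9.84% of the set against 0.935% of the other unnamed genes searched. CG13678 had 2.33, 9.999 and 5.83 CPM in wts discs on day 5 and 4.66, 2.00 and 1.48 CPM on day 9, against 34.8, 36.3 and 12.1 CPM in control discs. CG31522 had 4.40, 5.21 and 7.06 CPM on day 5 and 5.70, 4.52 and 5.22 CPM on day 9, against 35.3, 31.3 and 14.7 CPM in control discs. In both, control replicate 3 lay far under the other two controls. CG31559 was instead highest in control replicate 1, with 0.101, 0.211 and 0.153 CPM on day 5 and 0.518, 0.411 and 0.239 CPM on day 9, against 8, 3.10 and 3.93 CPM in control discs.

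Genes of the ecdysone response, the steroid hormone response that runs through the end of larval life, also differed between replicates of one group. The summed level of the 20 genes measured was 2376 to 3027 CPM on day 5 and 3898 to 5104 CPM on day 9, against 6379, 3660 and 7378 CPM in control replicates 1, 2 and 3. Much of the sum was br and ImpE2, at 2072 and 2256 CPM in control replicate 1. The genes were mixed, with ftz-f1 above every control in all wts replicates. On day 9 edgeR called 6 of the 20 higher and 0 lower than in control, where 15.3% and 14.3% of all genes tested were called. Without control replicate 2, 5 of the 20 were called lower. The part of larval stage in the 61 values was not tested. The remaining marker lists spanned 487 to 527 CPM on day 5 and 667 to 733 CPM on day 9, against 689 to 773 CPM in control, for 10 myoblast genes. Tracheal genes summed to 3163 to 3596 CPM on day 5 and 3737 to 4212 CPM on day 9, against 2132 to 2539 CPM in control. This list was mixed: btl and dys were below every control in all wts replicates, and trh overlapped the controls. The rest of the tracheal list was above every control. Haemocyte genes summed to 60.4 to 71.5 CPM on day 5 and 108 to 147 CPM on day 9, against 61.5 to 124 CPM in control, and fat body genes to 5.14 to 26.4, 12.5 to 217.5 and 12.8 to 184.6 CPM in the same order. Neuronal genes summed to 89.8 to 98.5 CPM on day 5 and 75.5 to 105.6 CPM on day 9, against 75.9 to 89.9 CPM in control, and glial genes to 332 to 342, 385 to 410 and 303 to 367 CPM. Most of the neuronal sum was elav (63.1 to 93.7 CPM) and most of the glial sum was Gli (205 to 304 CPM). These sums therefore say little about the other listed markers. The neuronal marker brp and the glial marker repo were at 0 in wts day 5 replicate 2, and repo reached at most 1.44 CPM in any replicate. None of the 61 genes could be in any of the 10 lists, since every listed gene has a name and the rule took CG numbers only.

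Within the wts groups, 1 replicate also tended to lead. Replicate 2 of day 5 was at least 1.5 times both others in 14 of the 61 (23%), against 1.26% of the other unnamed genes searched, and replicate 1 of day 9 in 12 (19.7%), against 2.34%. Both held for 6 genes, CG11370, CG13067, CG13678, CG17646, CG32816 and CG5397 (9.84% against 0.432%). CG5397 had 5.01, 17.3 and 8.24 CPM in wts discs on day 5 and 13.8, 6.99 and 5.74 CPM on day 9, against 31.6, 27.8 and 28.7 CPM in control discs. CG13067 had 1.72, 7.6 and 3.17 CPM on day 5 and 2.49, 0.720 and 0.383 CPM on day 9, against 18.6, 19.0 and 7.92 CPM in control discs. The muscle sum was 1273 CPM in wts day 5 replicate 2 against 1146 and 1085 CPM in replicates 1 and 3, and the haemocyte sum was 147 CPM in wts day 9 replicate 1 against 122 and 108 CPM in replicates 2 and 3. Of the muscle sum, Tm1 gave 937 CPM in wts day 5 replicate 2 and 902 and 884 CPM in replicates 1 and 3. For every muscle gene except Tm1 and sls, wts day 9 replicate 1 was also the highest of its group. Mhc, for example, had 3.94, 0.720 and 0.670 CPM in day 9 replicates 1, 2 and 3. The ecdysone response sum (5104, 3898 and 4651 CPM) and the tracheal sum (4212, 3927 and 3737 CPM) led in day 9 replicate 1 too. The myoblast, fat body and glial sums did not. The part of these tissues and of larval stage in these values was not tested. Leaving out wts day 5 replicate 2, 78 genes met the rule, all 61 included.

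**Figure D3:**
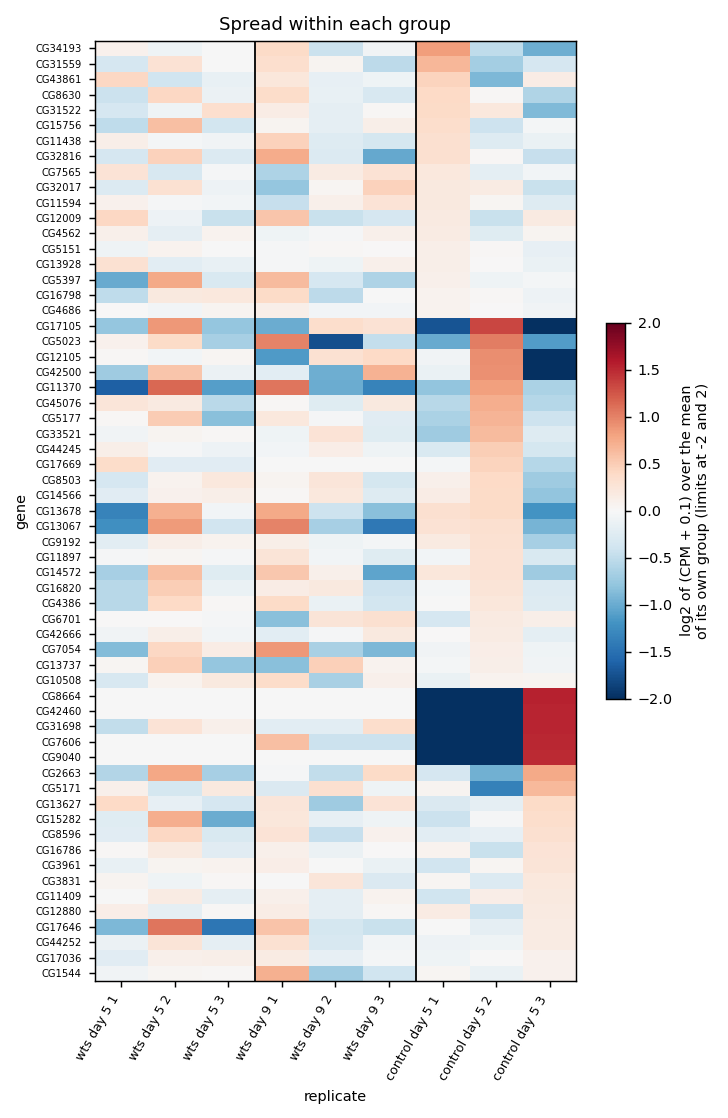
Heat map of log2 of CPM plus 0.1 over the mean of the gene's own group, for the 61 genes (rows, ordered by their highest control) in the 9 replicates (columns). Blocks of colour in the control columns mark the genes led by control replicate 1, 2 or 3, and the columns of wts day 5 replicate 2 and wts day 9 replicate 1 are high for CG11370, CG13067, CG13678, CG17646, CG32816 and CG5397.

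The wts ages were then set against each other, a comparison that the rule did not use directly, since it capped each age against control and set no order between them. Of the 61, 55 passed the filter on low counts, and 6 (CG17105, CG31698, CG42460, CG7606, CG8664 and CG9040) did not and were not tested. The filter used all 3 groups, so control counts, which the rule required to be higher, could carry a gene through it. With only the 2 wts groups fitted, 50 members were tested. The shares and the median below are those of the 55. On day 9, 3 members were higher than on day 5 and 5 were lower (edgeR quasi-likelihood F-test, Benjamini-Hochberg adjusted p under 0.05 over 8585 genes). Over all genes tested 5.44% were higher and 2.9% lower, and among the 55 members the shares were 5.45% and 9.09%. The median log2 fold change was -0.35 over the 55 and -0.015 over all genes. At an unadjusted p under 0.05 there were 22 of the 55, 8 of them higher and 14 lower. Replicates of the ages did not overlap in 9 of the 55 that were higher and 15 of the 55 that were lower on day 9. Of all 8585 genes, 1579 (18.4%) and 1438 (16.8%) were in those classes. The share of the 55 in the higher class was thus not above that of all genes.

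CG5151 had the smallest adjusted p. It had 26.9 ± 0.450 CPM on day 9 and 43.2 ± 2.35 CPM on day 5 (SD, n = 3 each), a log2 fold change of -0.68 ± 0.08 (SE, edgeR adjusted p = 0.00309). This call held in all 18 fits tried. CG11897 (rdog) had 6.41 ± 1.15 CPM on day 9 and 12.1 ± 0.349 CPM on day 5, with a log2 fold change of -0.92 ± 0.18 (edgeR adjusted p = 0.0185). CG14566 had 5.52 ± 0.892 CPM on day 9 and 13.1 ± 1.65 CPM on day 5, with a log2 fold change of -1.25 ± 0.29 (edgeR adjusted p = 0.0295). CG16798 was at 1.01 ± 0.340 CPM on day 9 and 2.70 ± 0.715 CPM on day 5 (log2 fold change -1.41 ± 0.30, edgeR adjusted p = 0.0240), and CG16820 at 3.04 ± 0.686 and 6.44 ± 2.41 CPM (log2 fold change -1.07 ± 0.28, edgeR adjusted p = 0.0472). In all 5 the highest day 9 replicate was below the lowest day 5 replicate.

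The 3 members that were higher on day 9 differed widely in level; the rule keeps all of their values under the controls. CG13627 had 0.985, 0.463 and 1.00 CPM on day 9 and 0.152, 0.0704 and 0.0512 CPM on day 5 (log2 fold change 3.05 ± 0.54, edgeR adjusted p = 0.0114), where its day 5 values rest on 5 reads in all. With only the 2 wts groups fitted, CG13627 did not pass the filter on low counts. Its control counts carried it into this test. CG1544 averaged 3.18 ± 1.80 CPM on day 9 and 0.956 ± 0.0400 CPM on day 5 (log2 fold change 1.73 ± 0.37, edgeR adjusted p = 0.0219), with the first day 9 replicate more than 2 times the other two. CG12880 averaged 62.5 ± 7.09 CPM on day 9 and 40.3 ± 4.34 CPM on day 5 (log2 fold change 0.63 ± 0.16, edgeR adjusted p = 0.0395). In control discs the 3 genes were at 3.34, 11 and 122 CPM.

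Of these 8 calls only that of CG5151 held without each of the 9 replicates. Without wts day 5 replicate 2, 0 members were higher and 1 was lower on day 9, and without wts day 5 replicate 3 the numbers were 0 and 2 (edgeR). At an unadjusted p under 0.05 these fits had 5 and 3 higher members, and no other tool was run without a replicate. Without wts day 5 replicate 1 there was 1 higher member, and without wts day 9 replicate 2 or 3 there was 1 lower member each. No log2 fold change of the 8 changed sign in any fit in which the gene was tested.

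**Figure D4:**
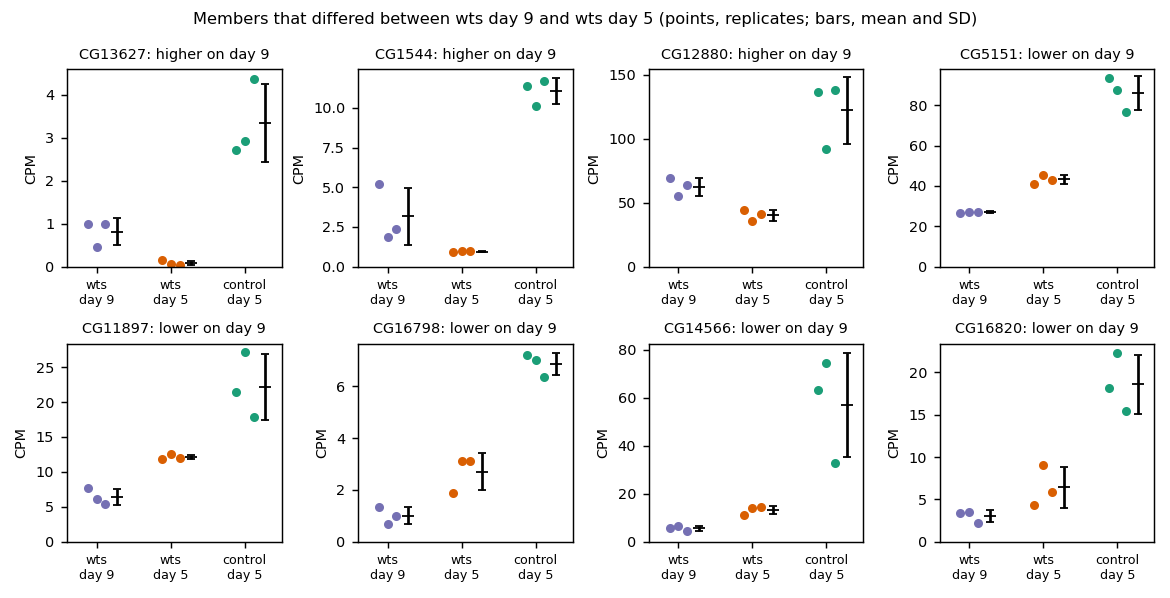
CPM in each replicate of wts discs on day 9 (left), wts discs on day 5 and control discs for the 8 genes called between the wts ages, with the mean and SD of each group (n = 3). The day 9 and day 5 points do not overlap in any of the 8, and every control point is above both.

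The other annotated transporters were not called between the ages. CG4562 (Mrp5) had a log2 fold change of 0.27 ± 0.18 on day 9 over day 5 (SE, edgeR adjusted p = 0.426), with every day 9 replicate above every day 5 replicate. CG44252 (Fatp2) differed by 0.04 ± 0.21 and CG4686, the neighbour of CG4562, by 0.01 ± 0.10 (edgeR adjusted p = 0.911 and 0.946), and replicates of the ages overlapped in both. CG8596 (Cln7) averaged 16.8 ± 4.21 CPM on day 9 and 11.1 ± 3.24 CPM on day 5, a log2 fold change of 0.61 ± 0.24 that did not pass (edgeR adjusted p = 0.137). CG17646 (synonym ABCG1) averaged 0.947 ± 0.437 CPM on day 9 and 2.81 ± 2.76 CPM on day 5. Its log2 fold change of -1.52 ± 0.62 did not pass either (edgeR adjusted p = 0.149), and replicates of the ages overlapped. CG17669 (Dnaaf3), with a single read in the wts discs, was too low for a difference between the ages to be detectable at this depth.

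On the Release 6 annotation all 61 were protein coding, and 18 of them shared exonic bases with another gene. CG13627 shared 92.7% of its exonic bases with CG46316 and CG5151 shared 56.4% with CG32152, both on the same strand, and CG32152 had no counts in any library. The sources used here do not say how the authors' counting split such reads, and the levels of CG13627 and CG5151 are uncertain to that extent. The median exonic length was 2168 bp, against 1897.5 bp for other unnamed genes searched. Members with a single exon made up 14.8%, against 10.5%, and members under 1000 exonic bp 21.3%, against 14.0%.

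By chromosome arm, 18 of the 61 (29.5%) were on 3L, where 20.3% of the other unnamed genes searched lie, and 5 (8.2%) were on the X, against 18.4%. The tiny chromosome 4 held 2 members of its 14 unnamed genes searched. Members within 20 kb of each other formed 4 pairs: CG14566 with CG14572 and CG5171 with CG5177 were direct neighbours, CG12105 and CG13928 had 4 genes between them, and CG4562 (Mrp5) overlapped CG4686 on the opposite strand over 38.2% of the exonic bases of CG4686, where reads of the pair cannot be told apart unless the counting used strand. The neighbours did not share one pattern. CG14566 stood at 23% of control on day 5 and 9.69% on day 9, and CG14572 at 35.9% and 25.1%. CG5171 was at 17.6% and 26.1%, and CG5177 at 23.3% and 12%. CG4562 was at 8.90% and 10.8%, and CG4686 at 46.6% and 47.0%. Of 45 adjacent genes outside the set with a control mean of at least 3 CPM, 1 (2.22%) met the same thresholds, and their median ratio to control was 0.985 on day 5 and 0.945 on day 9. The glue gene Sgs5, beside CG7606, averaged 0.0171 CPM on day 5 and 0.171 CPM on day 9, against 172 CPM in control discs. CG15404, beside CG31698, averaged 0 and 0.0344 CPM, against 11.7 CPM in control discs. Both met the ratio and control limits and missed the rule because wts and control replicates overlapped.

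The limits of the rule cut through a continuous range. Just inside the ratio limit were CG44245 (0.560), CG3831 (0.549) and CG11897 (0.547), and just outside CG13875 (0.574), CG43078 (0.575) and CG2201 (0.576). Just inside the control minimum were CG13737 (3.15 CPM), CG13627 (3.34 CPM) and CG17105 (3.55 CPM), and just outside CG42708 (2.99 CPM), CG31029 (2.83 CPM) and CG13258 (2.81 CPM). The highest wts value was 0.965 of the lowest control for CG34193, 0.961 for CG13067 and 0.958 for CG43861 inside the rule, and 1.003 for CG8925, 1.004 for CG13360 and 1.005 for CG32447 outside it. In all, 109 unnamed genes had both ratios at or under 0.57, and 48 of them were left out because wts and control replicates overlapped.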

How the data were processed

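Total RNA of wing discs was read in 18 libraries. The values deposited are counts of reads per gene, whole numbers without normalization, made by the authors with HTSeq according to the labels (per the submitters' processing notes). The sources used here do not give its version, the aligner, the build or the strand setting. Libraries a and b of a number were summed (n = 3 per group), and CPM uses the total count. The genes and the 10 marker lists were chosen with earlier results of these data known.

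All 3 groups were fitted together on the whole table with edgeR 4.0.16 (quasi-likelihood F-test, TMM, filterByExpr, 8585 genes kept), in R 4.3.3 with limma 3.58.1, with calls made at a Benjamini-Hochberg adjusted p below 0.05. With labels silent on what a replicate is, p-values measure the spread between these samples only, which may be technical. The fit was tested on simulated data. Figures were drawn with matplotlib 3.10.9. Genes named are the 12 with the highest control means, the 10 with the lowest ratios, the 6 most and 6 least even in control, those called between the wts ages, pairs within 20 kb, those nearest a threshold, and others for their annotation or position. Names, neighbours and exon lengths come from RefSeq and Ensembl tables of Release 6, whose build may differ from that of the authors. Intervals and floors cover counting error only. Alternatives were DESeq2 1.42.0, limma-voom, other scalings and filters, a replicate block, fewer groups, single libraries, other rule limits and leaving out each replicate. Protein and promoter sequences were not used here.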

Additional observations from a re-analysis of the deposited data

How the results depend on the processing

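The number of genes meeting the rule was 116 with a control mean of at least 1 CPM and 32 with at least 10 CPM. It was 59 with TMM-scaled CPM, 64 and 67 from the a and b libraries alone, 51 with a ratio of at most 0.5, and 61 to 91 without each replicate in turn. Without a replicate the no-overlap step is easier to meet. Between the wts ages, limma-voom called 1 of the 61 higher and 3 lower on day 9, only the 2 groups compared gave 9 lower, and the a libraries alone 3 lower. Leaving out each replicate gave 0 to 4 higher and 1 to 7 lower. Over all genes DESeq2 called 800 higher and 423 lower, the fit of the 2 groups alone 711 higher, and leaving out each replicate gave 117 to 585 higher and 35 to 308 lower. The numbers showed no clear pairing of the samples: deviations of same-numbered replicates correlated at -0.17 to 0.24 over 9 pairs. Differently numbered replicates correlated at -0.26 to 0.17, and so few replicates cannot exclude pairing. With the replicate block, 3 of the 61 were higher and 4 lower, CG16798 losing its call, and 387 and 141 of all genes. RLE factors, library size alone and no count filter changed none of these numbers by over 1.5 times. CG44245 gained a call with only the 2 groups or without control replicate 2. No direction reversed among the 8 called genes. Of uncalled named genes, CG11370 stood at 0.24 without wts day 5 replicate 2 (-1.06 with all replicates, log2, day 9 over day 5), CG12105 at 0.10 without wts day 9 replicate 1 (-0.35), CG5397 at 0.42 when wts day 5 replicate 2 was dropped or 0.07 when wts day 9 replicate 3 was (-0.17), and CG4686 lay between -0.06 and 0.05 in all fits. Where wts counts are a few reads or none, as for CG17105 and CG42460, depth limits the ratio.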

Other observations

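The same thresholds applied to genes of any other symbol gave 93 genes, described here with values seen beforehand and with no test. They included muscle genes, among them Tm2 (tropomyosin), which averaged 5.52 CPM in wts discs on day 5 and 0.458 CPM on day 9, against 30.7 CPM in control discs, and Mlp60A, with 1.18, 0.0678 and 9.43 CPM in the same groups. Both were highest in control replicate 2, at 64.7 CPM for Tm2 and 21.5 CPM for Mlp60A, and without it the control means were 13.7 and 3.41 CPM. Cuticle protein genes were also there: Cpr49Ag averaged 10.3 CPM on day 5 and 4.09 CPM on day 9, against 36.8 CPM in control discs.

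Genes with known roles in patterning the disc met the thresholds as well. The transcription factor gene bi (optomotor-blind) averaged 118 CPM on day 5 and 88.3 CPM on day 9, against 254 CPM in control discs, and dac averaged 30.9 and 23.4 CPM, against 89.7 CPM. Of the proneural genes, sc averaged 12.3 and 12 CPM, against 25.4 CPM, and ac 8.98 and 7.51 CPM, against 17.7 CPM. The small heat shock protein gene Hsp27 averaged 467 CPM on day 5 and 770.5 CPM on day 9, against 1677 CPM in control discs. Oseg5 and tilB, genes with roles in cilia, met them too: Oseg5 averaged 0.0680 and 0.0518 CPM, against 3.69 CPM in control discs, and tilB 1.15 and 0.949 CPM, against 3.24 CPM.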
